A study of Mus musculus with 4 samples.

Results

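The 9 genes described here encode the signal chains of the B cell receptor (Cd79a and Cd79b), activating coreceptors (Cd81 and Cr2) and inhibitory receptors (Cd22, Cd72, Fcgr2b, Siglecg and Pirb). They were chosen by gene symbol from the 20735 genes listed in the deposited tables, and all 9 were listed in each library. The cells were germinal centre B cells, the antigen-activated B cells of lymphoid follicles, sorted from spleens of C57BL/6 mice aged 8 weeks that had been immunized with sheep red blood cells (SRBC). The wild-type (wt) group and the Nsd2 knockout (ko) group held 2 messenger RNA libraries each, so both groups shared strain, age and immunization. Nsd2 encodes a histone methyltransferase. The labels do not give the deleted part of Nsd2, a Cre driver, the sort gates or the number of mice pooled. Nor do they state whether the pair of libraries in a group had different donor animals, and the p-values may therefore reflect no more than technical variation.

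The B cell receptor is a membrane immunoglobulin that binds antigen and carries no long tail of its own. It signals through a heterodimer of CD79A and CD79B, whose tails hold paired tyrosines that are phosphorylated by Src-family kinases and then recruit the kinase SYK. A coreceptor complex with the complement receptor CR2 and the tetraspanin CD81 lowers the amount of antigen needed. Inhibitory receptors hold single tyrosine motifs that recruit the phosphatases SHP-1 or SHIP-1 and restrain the same pathway. Germinal centre B cells are known for restrained receptor signalling.

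Nsd2 mRNA, listed under its older symbol Whsc1, stood at 76.9 and 81.4 FPKM (fragments scaled to transcript length in kilobases and to library size) in the wt libraries and at 31.4 and 34.1 FPKM in the ko libraries, so transcript remained in ko. The 4 libraries listed 17731 to 17922 genes above 0. Relative to wt 1, sequencing depth read from the spacing of low values was 92.8% in wt 2 and 75.8% and 77.5% in the ko libraries. The germinal centre markers Bcl6, Fas, S1pr2, Mef2b, Rgs13, Gcsam and Mybl1 were listed above 0 in every library.

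Of the 9 genes, 3 rose and 1 fell in ko, and 5 did not pass the test (limma on log2(FPKM + 1), Benjamini-Hochberg adjusted p below 0.05 over 10883 tested genes). Cr2 and Cd72 rose by 19.7% and 21.97% in mean FPKM and Cd22 by 7.64%, while Cd79b fell by 6.97%. Across all tested genes 12.9% passed the same threshold, 6.66% upward and 6.2% downward. For the 1687 tested genes that averaged 50 FPKM or more, the range that holds 8 of the 9, the share was 20.8%. Of those 1687 genes, 229 rose and 122 fell. Groups did not overlap for 6 of the 9 genes, a share close to the 61.2% of all tested genes. The median log2 fold change was 0.10 over the 9 genes and 0.01 over all tested genes. In bulk RNA, fewer cells of a type and less RNA per cell cannot be told apart.

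**Figure D1:**
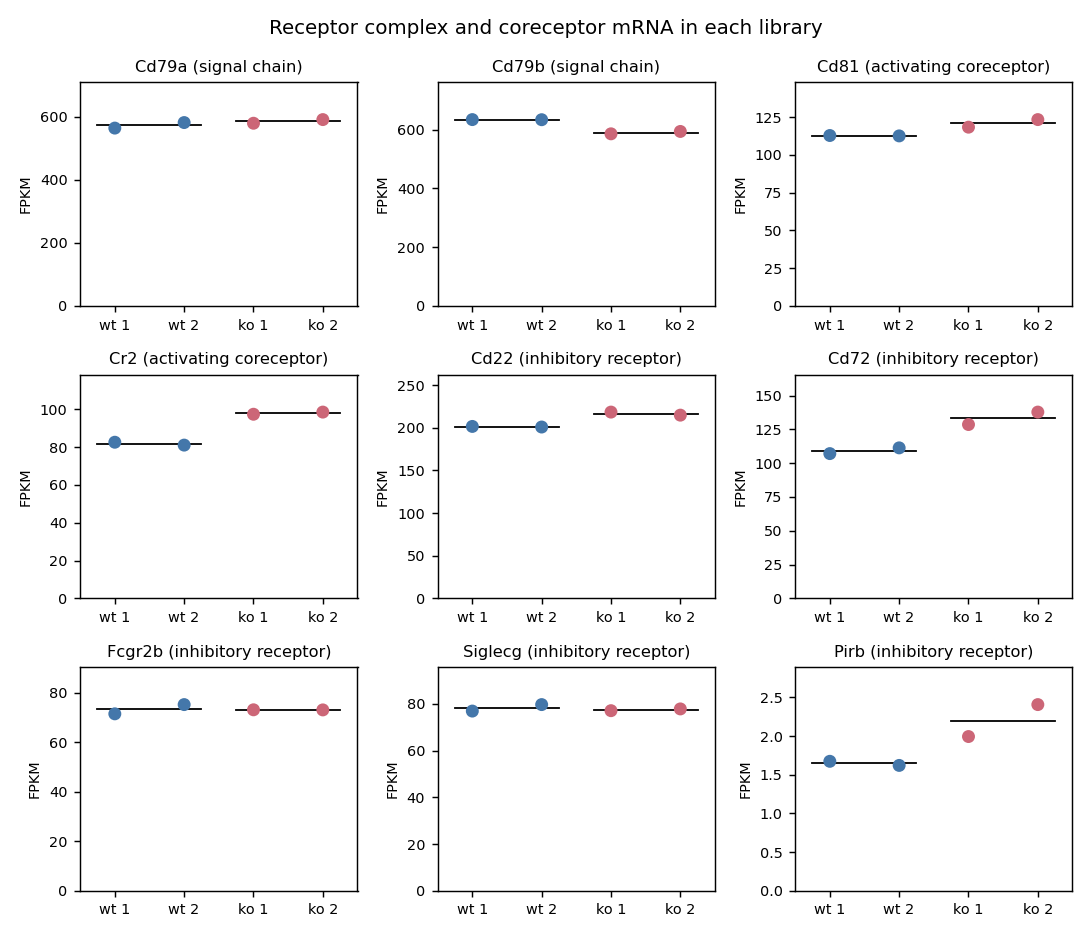
FPKM of each of the 9 genes (vertical axes, from 0) in the 4 libraries (horizontal axes); blue points are wt, red points are ko, and each bar is the mean of 2 libraries. Cr2 lies at 81.1 and 82.6 FPKM in wt against 97.4 and 98.5 FPKM in ko, while the wt and ko points of Cd79a, Fcgr2b and Siglecg overlap.

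The signal chains were the most abundant of the 9 messages, and they did not move together. Cd79b (ENSMUSG00000040592, GRCm38 chromosome 11, 106311341 to 106314762, minus strand) was at 634.6 and 634.2 FPKM in the wt libraries and at 586.1 and 594.2 FPKM in the ko libraries. Both ko libraries lay below both wt libraries, and the wt pair differed by less than 1 FPKM. The log2 fold change was -0.10 ± 0.02 (SE), with limma adjusted p = 0.0297. This call rests on both libraries of each group: with any 1 library left out the limma adjusted p was 0.071 to 0.123, while the log2 fold change stayed between -0.11 and -0.09. Cd79a (ENSMUSG00000003379, chromosome 7, 24897381 to 24902197, plus strand) was at 563.9 and 581.4 FPKM in wt, and at 579.2 and 590.8 FPKM in ko. Its groups overlapped, and the log2 fold change of 0.03 had a 95% interval of -0.03 to 0.09 (limma adjusted p = 0.442). About 15261 to 21811 fragments per library lay behind each value of these 2 genes, on an approximate scale, so counting error at the lowest value was 0.773% for Cd79a and 0.809% for Cd79b.

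The tails of CD79A and CD79B each carry an immunoreceptor tyrosine-based activation motif (ITAM), the docking site of SYK. The coding bases of these motifs, from GENCODE M21 on GRCm38, are shown because they are what makes this pair the signalling unit. The capitals mark the codons of the paired tyrosines, and each stretch joins 2 exons.
Cd79a, codons 182 to 196, chr7:24901296-24901469, plus strand: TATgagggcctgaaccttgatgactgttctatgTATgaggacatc
Cd79b, codons 195 to 209, chr11:106311867-106312012, minus strand: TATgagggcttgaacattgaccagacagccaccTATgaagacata
The pattern searched was a tyrosine, any 2 residues and leucine or isoleucine, then the same again after 6 to 8 residues. Among the 9 genes it occurred only in Cd79a and Cd79b, once in each, and 2.92% of 20294 coding genes held it.

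The ratio of Cd79b to Cd79a, taken inside each library and so independent of scaling between libraries, was 1.13 and 1.09 in wt and 1.01 and 1.01 in ko. Both ko values lay below both wt values, and in ko the messages of the partner chains were at nearly equal FPKM. The mean ratio was 1.11 ± 0.02 in wt and 1.01 ± 0.004 in ko (SD, n = 2). With 2 libraries against 2, an exact two-sided permutation test cannot go below p = 33.3%, which is the value it gave.

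Both activating coreceptors had higher means in ko, and Cr2 passed the test. Cr2 (ENSMUSG00000026616, chromosome 1, 195136811 to 195176716, minus strand) encodes the receptor for C3 fragments on antigen, and through splicing also CR1. It was at 82.6 and 81.1 FPKM in wt, and at 97.4 and 98.5 FPKM in ko. The gap between the groups was several times the spread inside either, with SDs of 1.31% in wt and 0.826% in ko. The log2 fold change was 0.26 ± 0.03 (SE, limma adjusted p = 0.00827). It was 0.24 to 0.27 with any 1 library left out, past the threshold each time. With no filter on low values the limma adjusted p was 0.078, and without a trend of spread on expression 0.0517.

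Cd81 (ENSMUSG00000037706, chromosome 7, 143052739 to 143067934, plus strand), the tetraspanin that holds the coreceptor complex in the membrane, was at 112.8 and 112.6 FPKM in wt, and at 118.3 and 123.4 FPKM in ko. Both ko libraries lay above both wt libraries. The log2 fold change of 0.10 had a 95% interval of 0.02 to 0.17, and limma adjusted p = 0.0834 missed the threshold. The ratio of Cr2 to Cd81 was 0.732 and 0.72 in wt and 0.823 and 0.799 in ko, without overlap.

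Cr2 is also a marker of follicular and marginal zone B cells outside the germinal centre and of follicular dendritic cells. Of 10 follicular dendritic and stromal markers, Cxcl13 was at 0 in every library, and the list came to 2.75 and 2.31 FPKM in wt against 2.48 and 2.74 FPKM in ko, nearly all of it Mfge8. Fcer2a, the low-affinity IgE receptor of resting follicular B cells, was at 68.1 and 68.4 FPKM in wt, and at 81.3 and 81.4 FPKM in ko, a log2 fold change of 0.25 (limma adjusted p = 0.00911) that held with any 1 library left out. The call of Fcer2a was lost with no filter on low values and without a trend of spread on expression. With Cd72 it made up the 2 rises among 4 tested paralogs and receptors of related sequence. Cd72 is also 1 of the 9 genes, so its rise was already counted above. Of these 4, 0 fell under limma and 1 was lower at an unadjusted p below 0.05. Over all tested genes, 6.66% rose and 6.2% fell under limma, and 15% were lower at that unadjusted p. Fcer2a was named from the list of paralogs, and no list of resting B cell markers was examined, so it stands for no such set. The part of other B cells in the value of Cr2 was not tested.

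The inhibitory receptors split. Cd72 and Cd22 rose, Fcgr2b and Siglecg stayed within the spread of their wt libraries, and Pirb, near the lower limit of the test, did not pass it. Cd72 (ENSMUSG00000028459, chromosome 4, 43446462 to 43454628, minus strand) is a C-type lectin-like receptor that binds SHP-1. It was at 107.1 and 111.3 FPKM in wt, and at 128.6 and 137.8 FPKM in ko. Both ko libraries lay above both wt libraries, and the ko pair differed by more than the wt pair. The log2 fold change was 0.28 ± 0.04 (SE, limma adjusted p = 0.0141). It ran from 0.23 without ko 2 to 0.33 without ko 1, and stayed past the threshold with any 1 library left out. The adjusted p was 0.1005 with no filter on low values and 0.0651 without a trend of spread on expression.

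Cd22 (ENSMUSG00000030577, chromosome 7, 30865402 to 30880342, minus strand) is the main sialic acid-binding inhibitory lectin of B cells. It was at 201.6 and 200.9 FPKM in wt, and at 218.4 and 214.8 FPKM in ko. Both ko values were higher than both wt values, by a small margin. The log2 fold change was 0.11 ± 0.02 (SE), and limma adjusted p = 0.0409 lay just past the threshold. It lay past the threshold in only 3 of 13 alternative settings, and was 0.103 to 0.147 with any 1 library left out, 0.054 after median-of-ratios scaling, 0.0808 after quantile normalization and 0.108 with the trend on GC content removed.

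Siglecg (ENSMUSG00000030468, chromosome 7, 43408204 to 43418358, plus strand) encodes the other sialic acid-binding inhibitory lectin of B cells. It was at 76.96 and 79.7 FPKM in wt, and at 77.1 and 77.9 FPKM in ko, with both ko libraries inside the wt range. Its log2 fold change of -0.02 had a 95% interval of -0.09 to 0.06 (limma adjusted p = 0.786). The ratio of Cd22 to Siglecg was 2.62 and 2.52 in wt and 2.83 and 2.76 in ko.

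Fcgr2b (ENSMUSG00000026656, chromosome 1, 170958617 to 170976547, minus strand) encodes the inhibitory IgG receptor, which acts through SHIP-1. It was at 71.4 and 75.2 FPKM in wt, and at 73.1 and 73.0 FPKM in ko, again inside the wt range. The 95% interval of its log2 fold change was -0.09 to 0.08 (limma adjusted p = 0.942), so a rise as large as that of Cr2 or Cd72 lay outside the interval.

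Pirb (ENSMUSG00000058818, chromosome 7, 3711409 to 3720391, minus strand) encodes a paired immunoglobulin-like receptor that binds MHC class I and is also expressed by myeloid cells. It was at 1.67 and 1.62 FPKM in wt, and at 1.99 and 2.41 FPKM in ko. Both ko libraries were higher, by 33.6% in the mean, but the ko pair differed by 13.3% (SD), and with about 118 to 146 fragments per library counting error alone reached 9.2%. Its log2 fold change of 0.27 had a 95% interval of 0.002 to 0.54 and limma adjusted p = 0.153. Across 13 markers of monocytes and macrophages the summed level was 14.5 and 14.0 FPKM in wt, against 20.7 and 20.9 FPKM in ko, with Lyz2 at 0.333 and 0.605 FPKM in wt, and at 1.59 and 1.64 FPKM in ko. Most of the sum was Mpeg1 and Cd68. Mpeg1 was at 6.52 and 6.64 FPKM in wt against 8.88 and 8.13 FPKM in ko. Cd68 was at 5.11 and 3.89 FPKM in wt against 5.25 and 5.84 FPKM in ko, and did not pass the test. Lyz2 reached the test only through its ko values, and 9 of the 13 markers were too low to be tested. Cd14 was not listed in wt 2. For 9 dendritic cell markers the sum was 14.5 and 15.9 FPKM in wt, against 22.2 and 20.6 FPKM in ko, nearly all of it Flt3 and Bst2. Siglech was at 0 in all but wt 1, and Xcr1 was at 0.121 and 0.0746 FPKM in wt against 0.0134 and 0.0774 FPKM in ko. The part of these cells in the Pirb values was not tested. Of 8 neutrophil markers, Camp, Mpo, Elane and Retnlg were at 0 in every library, and the sum of all 8 was at most 0.407 FPKM.

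**Figure D2:**
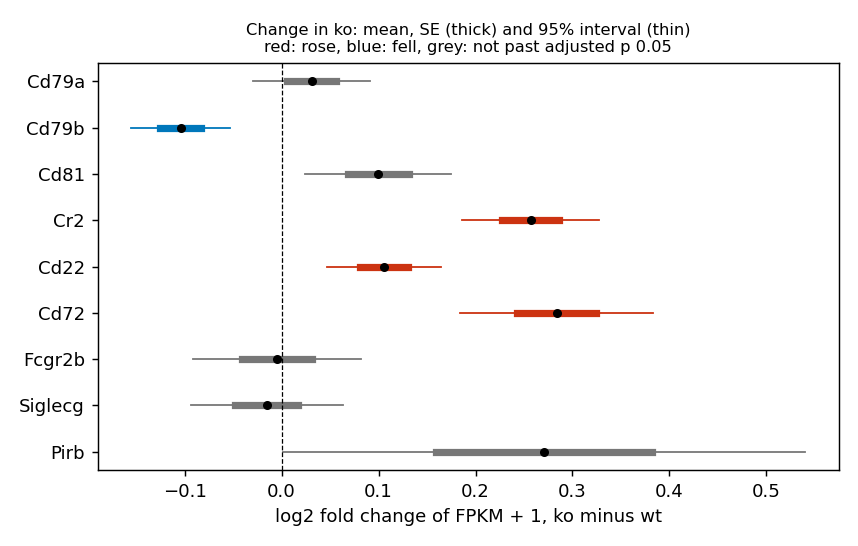
Log2 fold change of FPKM + 1, ko minus wt, for the 9 genes; points are estimates, thick bars the SE and thin bars the 95% interval from the limma fit with 2 libraries per group. Cr2, Cd72 and Cd22 lie above 0 and Cd79b below, in colour, while the intervals of Cd79a, Fcgr2b and Siglecg span 0.

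Inhibition by these 5 receptors runs through the immunoreceptor tyrosine-based inhibitory motif (ITIM), which phosphatases bind once its tyrosine is phosphorylated. Coding bases of ITIMs known from the cytoplasmic tails are shown, 18 bases each from GENCODE M21 on GRCm38, so that the receptors that rose (Cd22, Cd72) can be set beside those that did not. The capitals mark the tyrosine codon.
Cd22, codons 781 to 786, chr7:30867494-30867511, minus strand: gttagtTATgccatcttg
Cd22, codons 841 to 846, chr7:30866600-30866617, minus strand: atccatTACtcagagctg
Cd22, codons 861 to 866, chr7:30866540-30866557, minus strand: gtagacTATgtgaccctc
Cd72, codons 5 to 10, chr4:43454498-43454515, minus strand: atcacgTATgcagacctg
Fcgr2b, codons 317 to 322, chr1:170961071-170961088, minus strand: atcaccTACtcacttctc
Siglecg, codons 657 to 662, chr7:43417979-43417996, plus strand: ctccacTATgctgctctc
Pirb, codons 792 to 797, chr7:3712786-3712803, minus strand: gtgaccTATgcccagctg
Pirb, codons 822 to 827, chr7:3712696-3712713, minus strand: agtgtaTATgctactctg
The pattern searched was isoleucine, valine, leucine or serine, any residue, tyrosine, any 2 residues, and leucine, valine or isoleucine. It is loose: 50% of 20294 coding genes held it, and it occurred 5 times in Cd22, 4 times each in Cd72, Siglecg and Pirb, and once in Fcgr2b. It also occurred in Cd79a, Cd81 and Cr2, which are not inhibitory receptors. Cd72 carries its motif near the start of the coding sequence, at codons 5 to 10 of 361, because it sits in the membrane with its amino end inside the cell. The receptors that rose and those that did not both held the motif.

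The order of the 9 genes by FPKM, a scale per transcript length, was the same in both wt libraries: Cd79b, Cd79a, Cd22, Cd81, Cd72, Cr2, Siglecg, Fcgr2b and Pirb. In both ko libraries Cd72 stood above Cd81, and the rest of the order was as in wt. The closest neighbours in wt were Cd81 and Cd72 (112.6 and 111.3 FPKM in wt 2) and Cr2 and Siglecg (81.1 and 79.7 FPKM in wt 2), and neither pair overlapped. In ko Cr2, at 97.4 and 98.5 FPKM, stood clear of Siglecg, at 77.1 and 77.9 FPKM. In mean FPKM over the 4 libraries, Cd79b ranked 114 and Cd79a 121 of the tested genes, Cd22 ranked 304, and Pirb 9916. Within-group SDs of the other 8 genes were at most 4.88% of the mean, where the median for tested genes of at least 50 FPKM was 1.69% in wt and 1.58% in ko.

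By role, the signal chains summed to 1198 and 1216 FPKM in wt, against 1165 and 1185 FPKM in ko. The activating coreceptors summed to 195.4 and 193.6 FPKM in wt, against 215.7 and 221.9 FPKM in ko, and the inhibitory receptors to 458.7 and 468.7 FPKM in wt and to 499.2 and 505.9 FPKM in ko. The ratio of inhibitory receptor to signal chain FPKM was 0.383 and 0.386 in wt and 0.428 and 0.427 in ko. The groups did not overlap, and the ko ratio was 1.11 times that of wt. The exact two-sided permutation p was 33.3%, the smallest that 2 against 2 allows. Cd22 and Cd72 are part of both this ratio and the counts above, so it adds no separate evidence.

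**Figure D3:**
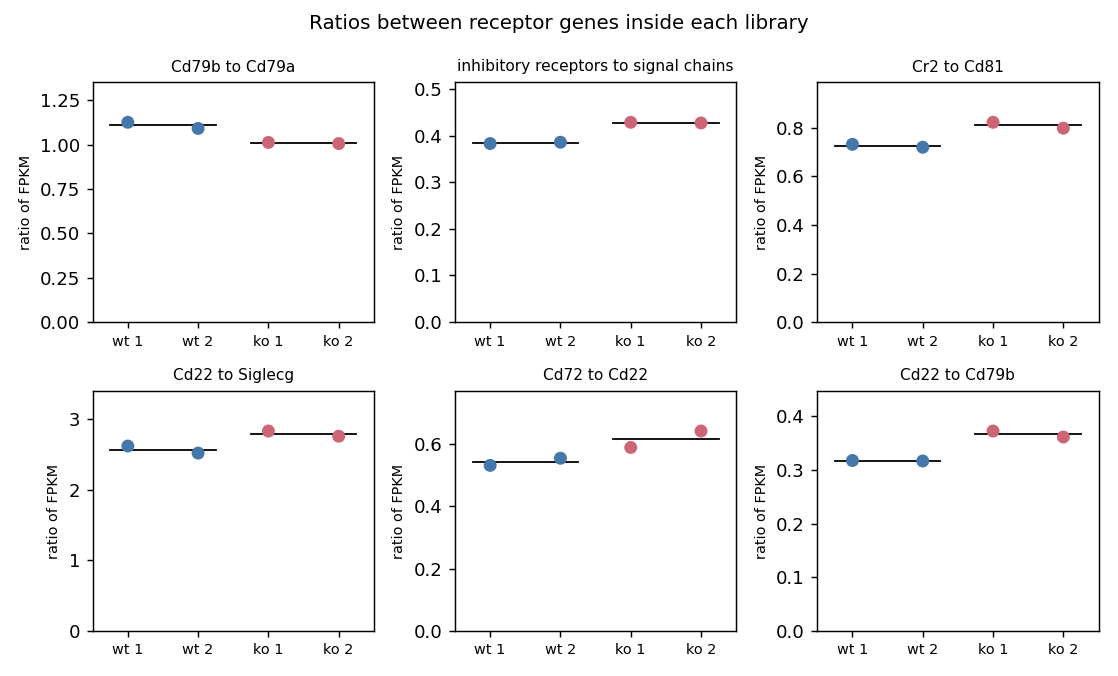
Ratios of FPKM between receptor genes or roles inside each library (vertical axes, from 0); blue points are wt, red points are ko, and each bar is the mean of 2 libraries. Cd79b to Cd79a lies at 1.13 and 1.09 in wt against 1.01 in both ko libraries, and inhibitory receptors to signal chains at 0.383 and 0.386 against 0.428 and 0.427.

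Some of the 9 genes share sequence or a locus with other genes. Cd72 and Tesk1 lie tail to tail and overlap by 1603 bases. In the 4 consensus coding (CCDS) transcripts of Cd72, 18.2% to 54.3% of the 50-base stretches also occur in Tesk1 transcripts. Tesk1 was at 6.74 to 8.401 FPKM, far below Cd72, and did not pass the test (log2 fold change 0.17, limma adjusted p = 0.232). The antisense gene Gm29439 lies inside Cd22 and was at 16.6 and 22.2 FPKM in wt, and at 24.7 and 21.1 FPKM in ko. Whether the authors counted by strand is not stated in the labels, so reads of these pairs may not be separated.

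Fcgr2b shares 8.605% of its 50-base stretches with other genes. The largest part, 4.96%, is with the activating receptor gene Fcgr3, which was at 0.0799 to 0.176 FPKM. Pirb shares 37.3% with other genes, led by Gm14548 and the activating receptor gene Pira2, which was at 0.35 to 0.536 FPKM, so the level of Pirb is uncertain. Cd79a shares 8.31% with Gm32220, Cd22 10.3% with other genes, led by Gm29439, and Siglecg 5.99%, led by Gm29791. The effect of shared stretches on the levels and on the ratio of Cd79b to Cd79a was not tested. Cd79b, Cd81 and Cr2 shared none with other annotated transcripts. R74862, at 0.344 to 0.497 FPKM, overlaps Cd81 by 948 bases on the other strand.

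Promoter windows of Cr2, Cd72 and Cd22, which rose, are shown with that of Cd79a, a signal chain that did not pass the test. They are RefSeq windows on GRCm38.p6, from 250 bases before to 50 bases after the annotated start. The windows were searched on both strands for 4 sites known in B cell promoters: the octamer ATGCAAAT, the E box CAGGTG, the PU box GAGGAA and the palindromic early B cell factor site. Capitals mark matches, and no 2 matches overlap.
Cr2, chr1:195176670-195176969, minus strand: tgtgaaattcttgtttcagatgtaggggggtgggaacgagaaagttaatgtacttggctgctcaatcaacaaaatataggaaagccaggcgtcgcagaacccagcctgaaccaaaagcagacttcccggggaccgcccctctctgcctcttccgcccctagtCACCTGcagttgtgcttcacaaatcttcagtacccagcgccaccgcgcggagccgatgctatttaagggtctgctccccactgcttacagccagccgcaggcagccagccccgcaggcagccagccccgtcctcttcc
Cd72, chr4:43454577-43454876, minus strand: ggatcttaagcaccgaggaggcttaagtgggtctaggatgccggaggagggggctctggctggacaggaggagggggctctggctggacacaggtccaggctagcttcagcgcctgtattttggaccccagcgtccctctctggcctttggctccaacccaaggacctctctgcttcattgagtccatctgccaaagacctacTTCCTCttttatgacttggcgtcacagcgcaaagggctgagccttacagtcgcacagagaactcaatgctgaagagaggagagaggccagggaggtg
Cd22, chr7:30878979-30879278, minus strand: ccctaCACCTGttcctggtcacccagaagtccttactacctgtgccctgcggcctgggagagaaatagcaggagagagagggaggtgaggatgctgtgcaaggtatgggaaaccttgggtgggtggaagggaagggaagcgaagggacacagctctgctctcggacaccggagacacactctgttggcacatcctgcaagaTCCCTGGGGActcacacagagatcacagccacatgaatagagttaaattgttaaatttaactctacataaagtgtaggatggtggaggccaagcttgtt
Cd79a, chr7:24897247-24897546, plus strand: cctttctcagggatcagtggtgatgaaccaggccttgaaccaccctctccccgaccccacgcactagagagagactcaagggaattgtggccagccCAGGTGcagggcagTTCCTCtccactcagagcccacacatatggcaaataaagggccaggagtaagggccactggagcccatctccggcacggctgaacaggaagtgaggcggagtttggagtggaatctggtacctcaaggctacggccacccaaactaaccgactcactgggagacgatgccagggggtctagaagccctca
The E box occurred once in the windows of Cr2 (88 bases before the start), Cd22 and Cd79a, and in 20.2% of 32851 promoter windows. The PU box occurred once each in Cd72 (47 bases before the start) and Cd79a, against 28.3% of windows. The early B cell factor site occurred in Cd22 (49 bases before the start), against 0.904% of windows, and the octamer in none of the 4, against 1.74%. No exact match to the same motif was shared by the 3 genes that rose. The windows of Cd81 and Fcgr2b held no exact match to any of the 4 sites.

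The next steps of the pathway were described from lists of related genes. Of 29 tested proximal kinases, adaptors and enzymes, 7 rose and 1 fell, with a median log2 fold change of 0.06. Over all tested genes, 6.66% rose and 6.2% fell. All 7 that rose averaged more than 50 FPKM, and of the 1687 tested genes at that level or above, 229 rose and 122 fell. Syk, the kinase that docks on the ITAMs, rose from 170.8 and 172.6 FPKM in wt to 190.0 and 189.3 FPKM in ko (limma adjusted p = 0.0196). The adaptor Grb2, the scaffold Bank1, the kinases Btk and Blk, and the Ras activator Rasgrp3 rose by 0.12 to 0.18 on the log2 scale. Vav1, a substrate of SYK, also rose, by 0.14, and Fyn, a Src-family kinase, fell by 0.17; both are named after their values were seen. The adaptor Blnk and the lipase Plcg2 had log2 fold changes of 0.02 and 0.06 and did not pass (limma adjusted p = 0.625 and 0.196). Of the 7 rises, only that of Bank1 was still called without wt 2, and 0 without wt 1, ko 1 or ko 2. The fall of Fyn (limma adjusted p = 0.0479) was lost with any 1 library left out (0.0981 to 0.155), under the replicate block (0.0762) and with the GC trend removed (0.0544).

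Of 15 tested phosphatases and other restraining effectors, 4 rose and 0 fell under limma, where 6.66% of all tested genes rose and 6.2% fell. The median log2 fold change of the list was 0.06. At an unadjusted p below 0.05, 8 were higher and 2 lower, where the shares of all tested genes were 17.1% and 15%. Ptprj, a receptor phosphatase, rose from 17.5 and 18.0 FPKM to 21.3 and 21.7 FPKM. The adaptors Lax1 and Sla rose by 0.21 and 0.32, and Ptpn22, a phosphatase of Src and Syk family kinases, by 0.44 on the log2 scale. Ptpn6, which encodes SHP-1, was at 214.8 and 209.9 FPKM in wt, and at 223.4 and 220.5 FPKM in ko (limma adjusted p = 0.148). Ptprc, which encodes CD45, was at 409.0 and 394.9 FPKM in wt, and at 444.9 and 414.5 FPKM in ko (limma adjusted p = 0.145). Of the 4 rises, only Lax1 was still called without wt 2, only Ptpn22 without ko 2, and 0 without wt 1 or ko 1.

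Of 6 tested inhibitory receptors from a wider lymphocyte list of 15, 0 passed the threshold under limma, 5 were higher at an unadjusted p below 0.05 (17.1% of all tested genes), and all 6 had higher means in ko (53% of all tested genes). Btla, a receptor for a TNF receptor family member, was the most abundant of them, at 81.4 and 79.4 FPKM in wt, and at 81.1 and 82.9 FPKM in ko. Pecam1 was at 12.6 and 13.1 FPKM in wt, and at 14.8 and 14.4 FPKM in ko (limma adjusted p = 0.0845).

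Ligands of the inhibitory receptors include Sema4d, which encodes CD100, the ligand of CD72, and St6gal1, the sialyltransferase that makes the glycan bound by CD22. Of 11 tested genes of ligands and ligand glycans, these 2 rose and 0 fell under limma, with a median log2 fold change of -0.04. Over all tested genes, 6.66% rose and 6.2% fell. At an unadjusted p below 0.05, 3 of the 11 were higher and 2 lower, where the shares of all tested genes were 17.1% and 15%. Sema4d was at 105.3 and 111.0 FPKM in wt, and at 125.8 and 129.1 FPKM in ko (log2 fold change 0.24, limma adjusted p = 0.015). St6gal1 was at 167.2 and 167.9 FPKM in wt, and at 187.0 and 184.3 FPKM in ko (log2 fold change 0.15, limma adjusted p = 0.0192). For both ligand genes the ko libraries lay above both wt libraries, where groups did not overlap for 61.2% of all tested genes. Sema4d lost its call without ko 2, and St6gal1 with any 1 library left out.

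Among 18 tested tetraspanins and other surface partners, 3 rose and 2 fell, where 6.66% of all tested genes rose and 6.2% fell. The median log2 fold change of the list was -0.05. At an unadjusted p below 0.05, 5 of the 18 were higher and 8 lower, where the shares of all tested genes were 17.1% and 15%. With the GC trend removed 1 rose and 4 fell. Cd82 and Tspan32, which are tetraspanins, rose by 0.19 and 0.25 on the log2 scale, and Ifitm3, an interferon-induced membrane protein, rose by 0.55 from 1.06 and 0.926 FPKM to 1.74 and 2.08 FPKM. Ifitm3 reached the test only through its ko values, and the related Ifitm1 and Ifitm2 were too low to be tested. Ptprcap, a partner of CD45, fell by 0.15 and Tspan3, a tetraspanin, by 0.42. Cd24a, a surface glycoprotein, was at 728.0 and 723.5 FPKM in wt against 686.8 and 687.6 FPKM in ko (limma adjusted p = 0.0521), and the tetraspanin Cd37 at 385.8 and 391.0 FPKM against 369.8 and 369.8 FPKM (0.0839). Both were called lower with the GC trend removed. Ms4a1, which encodes CD20, was at 602.2 and 599.1 FPKM in wt, and at 578.8 and 569.7 FPKM in ko (limma adjusted p = 0.0966). With 1 library left out, none of these 5 calls was made except that of Ptprcap without wt 2.

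Of 14 transcription factors known to act at B cell genes such as these, Pou2af1 and Spib fell and 0 rose under limma. Over all tested genes, 6.2% fell and 6.66% rose. At an unadjusted p below 0.05, 6 of the 14 were higher and 2 lower, where the shares of all tested genes were 17.1% and 15%. Pou2af1, the octamer coactivator, fell by 0.11 and Spib, an ETS factor, by 0.09 on the log2 scale (limma adjusted p = 0.0246 and 0.0437), and neither call held with any 1 library left out. Ikzf3, Irf8 and Ikzf1 did not pass, with limma adjusted p of 0.125 to 0.861.

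**Figure D4:**
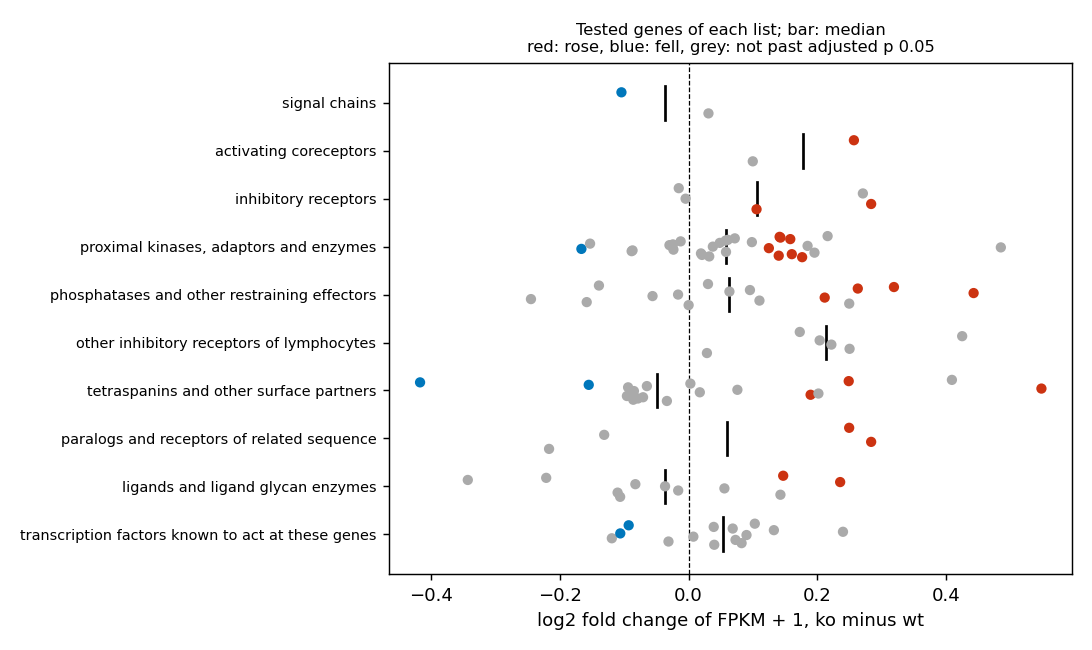
Log2 fold change of FPKM + 1, ko minus wt, for every tested gene of each list (rows); each point is a gene, red where it rose, blue where it fell and grey where it did not pass adjusted p 0.05, and the bar is the list's median. Of the proximal kinases, adaptors and enzymes 7 of 29 are red, and the ligand list holds 2 red points, Sema4d and St6gal1.

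Genes with the most similar pattern over the 4 libraries were taken from 3935 genes that averaged 20 FPKM or more, by root mean square distance of centred log2 values. For Cd79b they were Ndc1, Mbd3 and Cenpa, at distances of 0.002 to 0.004. For Cr2 they were Pip5k1c, Pfkp and Lgmn (0.0098 to 0.0103), for Cd22 Atp6v1f, Tcp1 and Actr1b (0.002 to 0.004), and for Cd72 Rpf2, Ldb1 and Kcnn4 (0.013 to 0.025). With 4 libraries the measure is mostly set by the size of the change.

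**Figure D5:**
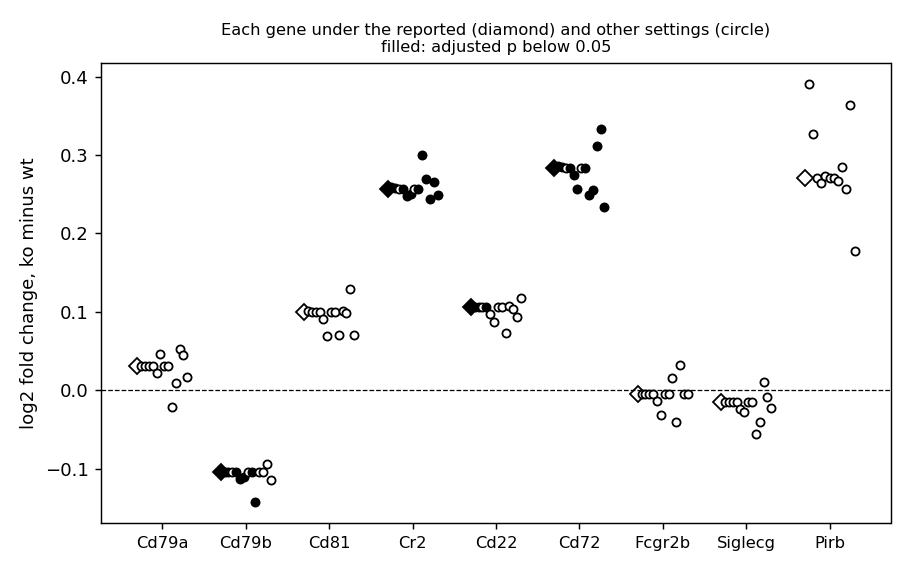
Log2 fold change of each of the 9 genes (vertical axis, ko minus wt) under the reported setting (diamond) and 12 or 13 alternative settings (circles); filled symbols have an adjusted p below 0.05. Cr2 runs from 0.24 to 0.30 and Cd72 from 0.23 to 0.33 with most symbols filled, while Cd22 is filled in the reported setting and in 3 alternatives.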

How the data were processed

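Messenger RNA libraries of sorted germinal centre B cells (2 wt, 2 ko) were deposited as 1 table of FPKM per library; per the file headers the values are FPKM by gene, made by the authors, with no counts. The submitters' processing notes list TopHat2 2.1.1, Bowtie2 2.2.9 and mm10; no source used here gives the program that made FPKM, its annotation or its use of strand. FPKM is scaled to each library's total, so a change in total RNA per cell cannot be seen. Genes absent from a table were set to 0, and a symbol listed under 2 IDs was kept with its annotated ID.

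Values were compared as log2(FPKM + 1) with limma 3.58.1 in R 4.3.3, with a trend of spread on expression, over the 10883 genes that averaged 1 FPKM or more; p-values were adjusted by Benjamini-Hochberg over all of them, with a threshold of 0.05. Fold changes on this scale understate those of low genes. Ratios used an exact permutation test, and ratios other than Cd79b to Cd79a and inhibitory receptors to signal chains were chosen after the values were seen. The fit was tested on simulated data. These were drawn from its own fitted spread, so they cannot show whether that spread or the choice of filter suits the libraries. Depth was estimated from the steps among low values, and fragment numbers are approximate and cover counting error only. The replicate numbers were not taken as pairs, since deviations of same-numbered libraries correlated at -0.083. Named genes were all 9 members, up to 6 called genes and 3 abundant others per list, and 3 of most similar pattern per called member. The members and lists were chosen with earlier results of these data known. Alternatives changed the pseudocount, filter, scaling, spread model, block, GC trend, threshold or libraries.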

Additional observations from a re-analysis of the deposited data

How the results depend on the processing

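Direction held for Cr2, Cd72, Cd22, Cd79b, Cd81 and Pirb under every alternative run. Cr2 and Cd72 kept their calls in 11 of 13 alternatives, Cd79b in 7 and Cd22 in 3. The count of the 9 genes that rose was 0, in place of 3, with no filter on low values and with no trend of spread on expression; the count that fell was 0, in place of 1, under both and with any 1 library left out (range 0 to 0). Over all tested genes, 725 rose and 675 fell; the counts were 9 and 5 with no filter, 231 and 305 with no trend, 482 and 435 with the replicate block, and 1345 and 1195 at an adjusted p below 0.10. Leaving out 1 library gave 208 to 333 and 186 to 267. The block ended the call of Cd22 (limma adjusted p = 0.0623) and of 6 of 23 other named genes, Fyn and Vav1 among them. No other call among the 9 genes changed under the block. Of the same 23 genes, 22 lost their call with no filter on low values and 19 with no trend of spread on expression. Both planned ratios moved by less than the replicate spread. With 2 libraries per group, leaving 1 out cannot move a ratio by more than that spread. Scaling between libraries cancels inside a ratio, so no conclusion is drawn from this.

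Signs turned only for genes that did not pass the test. With the GC trend removed, the log2 fold change was -0.021 for Cd79a, 0.016 for Fcgr2b, -0.065 for Csk and -0.073 for Irf8. With 1 library left out it ran from -0.041 to 0.032 for Fcgr2b, from -0.040 to 0.010 for Siglecg, from -0.0095 to 0.0099 for Csk, from -0.023 to 0.134 for Nans and from -0.0049 to 0.020 for Irf8. Quantile normalization gave -0.010 for Blnk, -0.022 for Csk and -0.0060 for Irf8, and median-of-ratios scaling -0.0085 for Csk and -0.0012 for Irf8. The cause was not tested. With 2 libraries per group, small changes rest on a spread pooled over genes, and depth limits only Pirb among the 9 genes.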
